A study of Mus musculus with 12 samples.

Results

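Phf6 and Vav1 are described here for the local background under their called peaks in a study of mice that carry a Phf6R274X transgene. The members are peaks: every peak of the 12 deposited lists that overlaps either gene with 10 kb on each side, 161 of 750343 peaks in all at 2 of 21883 protein-coding genes, with 26 at Phf6 and 135 at Vav1. Both genes were chosen because earlier values of the same contrast stood out there, so the values below describe the loci and carry no test. With 2 against 2 libraries of a mark, an exact permutation test could in any case not go below p = 0.333.

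The study profiled 3 histone marks, H3K27ac, H3K4me1 and H3K4me3, by ChIP-seq in cKit+ cells sorted from the bone marrow of C57BL/6 mice. H3K27ac and H3K4me1 mark active and primed regulatory elements, and H3K4me3 marks active gene starts. Each mark has 2 libraries of Phf6R274X Tg mice (Tg) and 2 of wild type mice (WT). The labels give no promoter, copy number or insertion site for the transgene, and neither the age nor the sex of the mice. Nothing says whether a library is 1 mouse or a pool, so the spread between replicates may be partly technical. The labels name no treatment.

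Phf6 is an X-linked gene for a chromatin protein with plant homeodomain-like zinc fingers, and it is mutated in human leukaemias. Vav1 encodes a guanine nucleotide exchange factor that acts in blood cell signalling, and its regulatory sequences are widely used to drive transgenes across the blood lineages. Where a transgene is built from mouse sequence, its reads align to the endogenous gene, in the chromatin fraction and in any input alike. How much of each value below comes from transgene copies was not tested.

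The promoter of Vav1 is shown because the raised stretch runs across it. It is the 300 bases of the RefSeq table (GRCm38.p6, the assembly known as mm10) at chr17:57278850-57279149 on the plus strand, written 5′ to 3′ with the PU.1 and ETS motif GAGGAAGT in capitals.
Vav1 promoter: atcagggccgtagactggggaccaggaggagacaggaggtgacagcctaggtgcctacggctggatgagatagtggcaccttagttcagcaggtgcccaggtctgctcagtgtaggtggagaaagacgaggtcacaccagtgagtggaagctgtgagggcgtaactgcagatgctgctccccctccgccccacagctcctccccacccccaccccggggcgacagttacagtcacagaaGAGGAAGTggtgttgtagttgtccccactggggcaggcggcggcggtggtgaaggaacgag
The motif was searched on both strands and had 1 match, on the strand of the gene, beginning at -11 from the annotated start. Of 32851 promoters of the same length, 3.20% hold it. The RUNX motif TGTGGT, also searched on both strands and sharing no full match with the first, had 0 matches here and is held by 16.8% of those promoters. The G and C content of the window was 61.7%, beside a median of 52.7% over all promoters. A match describes the letters alone. Of the 2 genes, 1 matched the promoter table, and for Phf6 only the gene is named.

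Peak lists hold no read counts, but each peak's deposited fold enrichment and p-value fix 2 unknowns: the reads at its summit and the reads that the peak caller took as local background there. Fold enrichment was read as summit reads plus 1 over background plus 1, and the p-value as the Poisson chance of more reads than were seen. The summit reads solved in this way were whole numbers within 0.05 reads in 100% of peaks in each of the 12 lists. With the chance of at least as many reads instead, 5.20% to 12.1% were whole. Every library has a floor, the lowest background, which many peaks share. The floors ran between 1.28 and 3.98 reads. All backgrounds below are given over the floor of their own library, which does not remove every difference between libraries. In H3K27ac the median peak still lay at 2.49 and 1.67 times the floor in the Tg libraries and at 1.20 and 1.62 times in the WT libraries. Background above the floor came in whole steps within 0.0004 reads for 100% of the peaks with more than 3-fold enrichment, the steps being those of reads counted in a window as wide as the library's shortest peak, in 1 kb or in 10 kb.

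Before any comparison, the labels need a caution. In all 4 H3K4me3 lists the peak names carry the opposite genotype to the label, whereas in the other 8 lists name and label match. The higher background followed the peak names in all 3 marks at Vav1 and in H3K4me1 and H3K4me3 at Phf6, while at Phf6 the H3K27ac values overlapped. Results are given by label, and H3K4me3 libraries are called "labelled Tg" (peaks named WT) and "labelled WT" (peaks named Tg). Which of the 2 is right was not tested.

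Vav1 carried the raised background in all 3 marks. In H3K27ac, the highest background at the gene was 47.4 and 31.2 times the floor in the Tg libraries, against 1.80 and 2.98 times in the WT libraries. In H3K4me1 it was 48.0 and 24.9 times the floor in the Tg libraries, against 3.22 and 2.85 times in the WT libraries. The groups did not overlap in either mark, and the lower Tg library was well above the higher WT library. Non-overlap alone is common: both Tg libraries lay above both WT libraries at 48.9% of genes tested in H3K27ac and 9.08% in H3K4me1. In H3K4me3, both libraries labelled WT lay above both labelled Tg at 29.5% of genes. In H3K4me3 the order was turned round: 1.41 and 1.75 times in the libraries labelled Tg, against 18.7 and 18.7 times in the libraries labelled WT.

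Set against every protein-coding gene, Vav1 was at the end of the distribution. Among genes with a peak in all 4 libraries of a mark, the mean log2 highest background over floor differed by 4.06 (Tg minus WT) at Vav1 in H3K27ac, beside a median of 0.62 over 12477 genes. It differed by 3.51 in H3K4me1, beside a median of 0.04 over 14146 genes, and by -3.57 in H3K4me3, beside a median of 0.00 over 15339 genes. These were the highest, the highest and the lowest values of all genes tested. A gene was called separated where the lowest library of 1 genotype was at least 1.5 times the highest of the other. By label, 7.37% of genes were separated with Tg higher and 0.0321% with WT higher in H3K27ac, 0.205% and 0.382% in H3K4me1, and 1.56% and 2.65% in H3K4me3. Since the gene was chosen on this contrast, nothing is read from its call beside those shares. Over the library median instead of the floor, 0.850% of genes were separated with Tg higher in H3K27ac.

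Scaling by the median peak of each library, added after seeing the data, brought the Vav1 replicates of H3K27ac and H3K4me1 closer. Those of H3K4me3 did not change. At Phf6 the H3K4me1 Tg replicates moved apart, from 9.04 and 9.86 times the floor to 4.97 and 8.17 times the median. The highest Vav1 background was then 19.1 and 18.7 times the median in the H3K27ac Tg libraries and 26.4 and 20.6 times in the H3K4me1 Tg libraries, against 1.5 and 1.83 times and 2.06 and 2.24 times in the WT libraries of the same marks. In H3K4me3 it was 1.41 and 1.75 times in the libraries labelled Tg, against 18.7 and 18.7 times in those labelled WT.

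**Figure D1:**
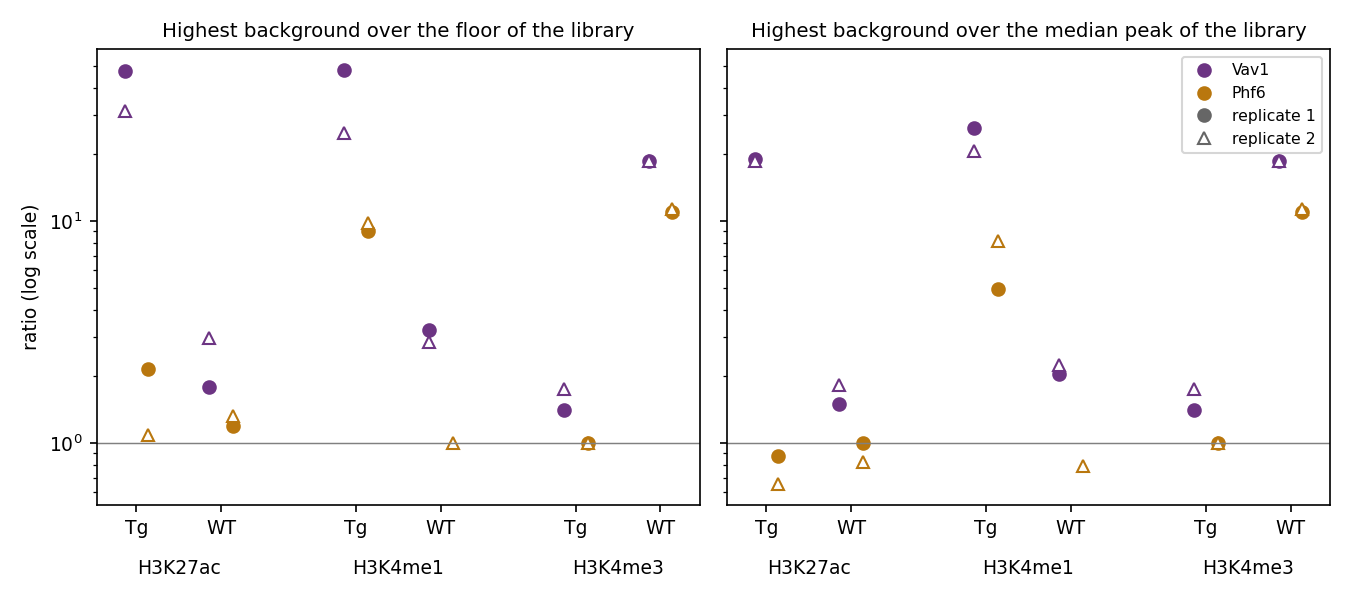
Highest background at Vav1 (purple) and Phf6 (ochre) in each library, over the library's floor (left) and over its median peak (right), on log axes, by genotype label; circles are replicate 1 and triangles replicate 2. Vav1 is between 18.7 and 48.0 times the floor in the 6 libraries whose peaks are named Tg, and at 3.22 times or less in the other 6.

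Single peaks were counted by 2 rules. By the first, a raised peak has a background of at least 2 times the floor. In H3K27ac that held for 13 of 14 Vav1 peaks in the Tg libraries and 4 of 13 in the WT libraries. The same rule took 70.4% and 28.5% of all peaks in the Tg libraries and 3.53% and 26.7% in the WT libraries, so the count at Vav1 is partly that of the library. In H3K4me1 it took 20 of 32 Vav1 peaks in the Tg libraries and 14 of 40 in the WT libraries, where 40.1% and 6.23% of all peaks in the Tg libraries and 25.8% and 7.96% in the WT libraries passed. In H3K4me3 it took 0 of 16 in the libraries labelled Tg and 12 of 20 in those labelled WT, where 1.11% and 1.73% of all peaks in the libraries labelled Tg and 1.27% and 2.29% in those labelled WT passed.

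The second rule, added after seeing the data, asks for a background above the 99th percentile of the peak's own library, which 0.788% of all peaks in the 12 lists exceed. It took 10 of 14 and 0 of 13 Vav1 peaks in the Tg and WT libraries of H3K27ac, and 15 of 32 and 0 of 40 in those of H3K4me1. In H3K4me3 it took 0 of 16 in the libraries labelled Tg and 12 of 20 in those labelled WT. By peak name, over both genes and all marks, it took 54 of 87 peaks in the Tg-named libraries and 0 of 74 in the WT-named libraries. Of the members in H3K4me1 Tg replicate 2, the lowest past the percentile was at 3.90 times the floor and the highest short of it at 1.64 times. In H3K4me1 Tg replicate 1 these were 5.59 and 3.64 times, with the percentile itself at 4.93 times. In H3K27ac Tg replicate 1 they were 31.0 and 2.49 times. In H3K4me1 WT replicate 2, 1 Vav1 peak lay on the percentile itself, at 2.85 times. Below, "raised" means past this second rule.

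The raised stretch at Vav1 (gene at chr17:57279100-57329236 on the plus strand, 50.1 kb long) ended at similar positions in the libraries with raised peaks. Its upstream edge differed more, between marks and between the H3K4me3 replicates labelled WT. Distances are from the annotated start, negative before it. In the H3K4me1 Tg libraries it began at -7.82 and -7.93 kb and ended at 13.1 and 13.3 kb, inside the gene, at chr17:57271285-57292248 and chr17:57271174-57292354. It spanned 21.0 and 21.2 kb. In the H3K27ac Tg libraries it began at -4.36 and -4.33 kb and ended at 12.5 and 12.3 kb. In H3K4me3 the libraries labelled Tg had no raised peak, and in those labelled WT it began at -7.58 and -5.03 kb and ended at 12.4 and 12.3 kb. A background is known only where a peak was called, so these edges are those of the outermost raised peaks.

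On both sides the next peak had a lower background. Towards Trip10, the nearest other peak ended between -29.1 and -12.7 kb, at 1 to 3.18 times the floor over the 6 libraries with raised peaks. Further out, within 50 kb of the gene, H3K27ac Tg replicate 1 reached 6.23 times, and H3K4me1 Tg replicate 1 had 1 more raised peak, at 5.21 times (chr17:57228553-57232282). Towards the end of the gene, no further peak was called in those 6 libraries until 49.3 to 58.6 kb, where the background was 1 to 2.49 times the floor. Just past the annotated end of Vav1 the genotypes were alike in level. Mean backgrounds there were 1.92 ± 0.737 times the floor in Tg and 2.09 ± 1.26 times in WT for H3K27ac (SD, n = 2 each), 2.47 ± 1.16 and 2.31 ± 1.29 times for H3K4me1 (SD, n = 2 each), and 1 in the libraries labelled Tg and 1.09 in those labelled WT for H3K4me3.

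**Figure D2:**
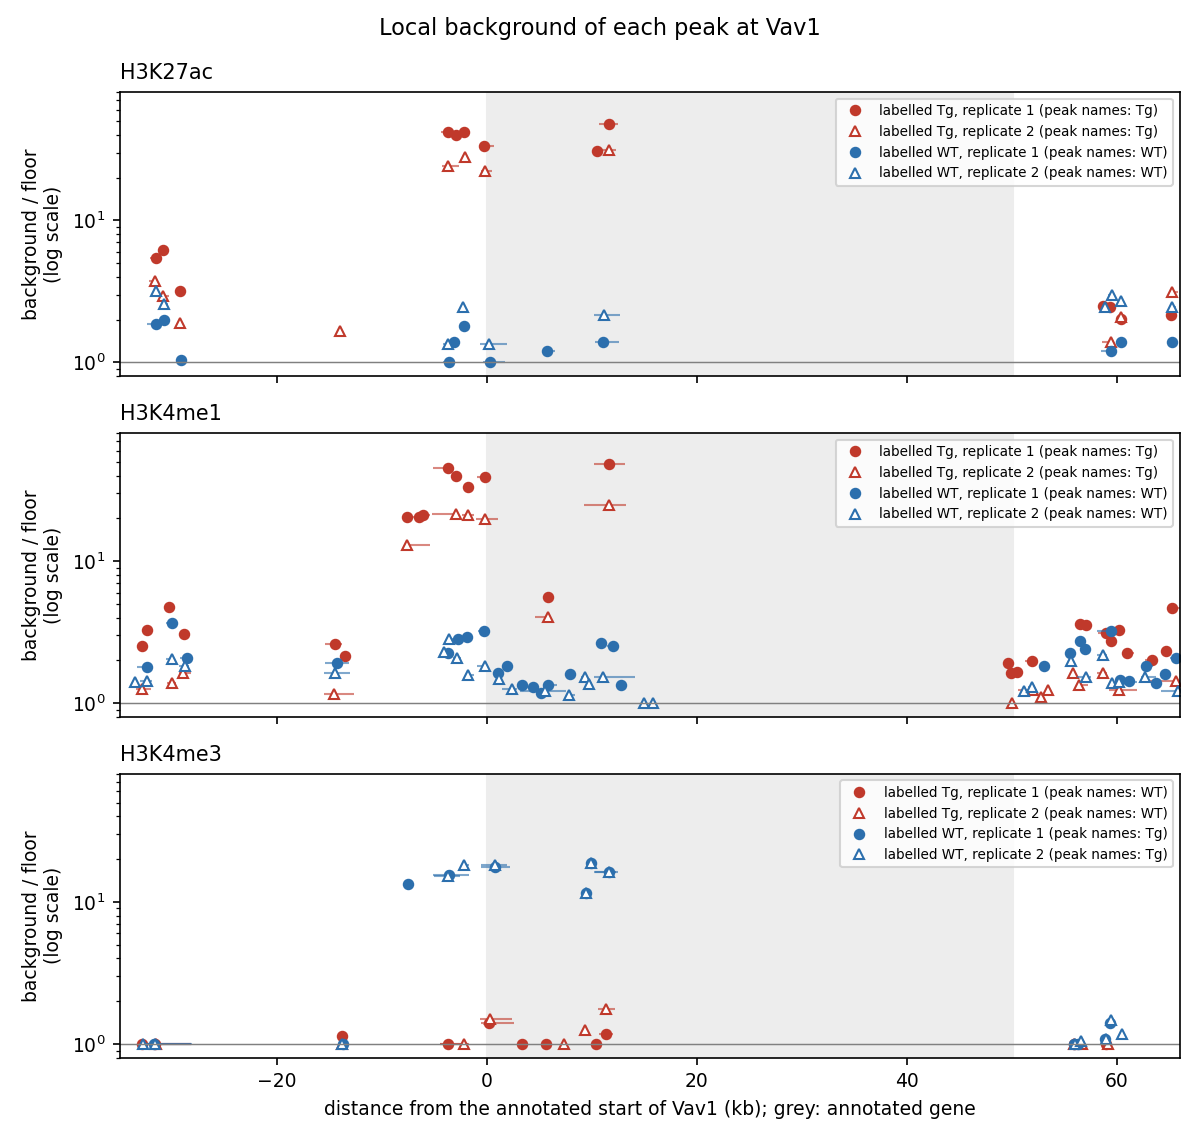
Background over floor (log scale) of each peak around Vav1 against its distance from the annotated gene start in kb, 1 panel a mark; symbols stand at summits, horizontal bars span the peaks, colours give the genotype label and the grey band is the gene. Within 10 kb of the gene, raised peaks lie between -7.93 and 13.3 kb, in H3K27ac and H3K4me1 Tg libraries and in H3K4me3 libraries labelled WT.

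Within the stretch the raised peaks formed 2 blocks. The upstream block ran across the gene start and ended 0.649 and 0.490 kb inside the gene in the H3K27ac Tg libraries, 0.053 and 1.02 kb inside in the H3K4me1 Tg libraries, and 2.17 and 1.88 kb inside in the H3K4me3 libraries labelled WT. The internal block began 10.3 and 10.3 kb, 10.2 and 9.27 kb, and 9.28 and 9.34 kb inside the gene in the same libraries. Between the blocks, H3K27ac Tg libraries and H3K4me3 libraries labelled WT had 0 peaks. The H3K4me1 Tg libraries had 1 peak each there, at 5.59 and 4.07 times the floor, against 6 peaks at 1.18 to 1.84 times and 3 peaks at 1.14 to 1.25 times in the WT libraries.

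The window that set each background differed between the blocks and the gap. Of the 37 raised Vav1 peaks, 26 had a background counted in the narrow window of the library's shortest peak and 9 in the 1 kb window. For 2 it came from the 10 kb window, and these were the 2 peaks in the gap. So at those 2 peaks the background counted close to the summit was below the value given, and the 10 kb window reached towards both blocks.

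At the gene start of Vav1, both summit reads and background were higher in Tg. In H3K27ac the Tg libraries had 137 and 159 reads at the summit over a background of 42.6 and 44.4 reads, against 85 and 71 reads over 3.06 and 2.56 reads in the WT libraries. The fold enrichment was therefore lower in Tg, at 3.17 and 3.52, than in WT, at 21.2 and 20.2. Over the floor, the mean summit reads were 93.4 ± 19.7 in Tg and 32.7 ± 6.93 in WT, and the mean background 27.8 ± 7.86 in Tg and 1.18 ± 0.250 in WT (SD, n = 2 each). The peak also had other bounds: it ended 0.649 and 0.490 kb inside the gene in Tg and 1.74 and 1.90 kb inside in WT, and its summit lay at -0.263 and -0.229 kb in Tg and at 0.234 and 0.201 kb in WT.

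In H3K4me1 the start peak had 283 and 365 summit reads in Tg, at a background of 39.2 and 19.9 times the floor, against 34 and 52 reads at 3.22 and 1.83 times in WT. The fold enrichments overlapped between the genotypes, with 2.38 and 4.87 in Tg and 2.75 and 6.40 in WT. In H3K4me3 the libraries labelled Tg had 188 and 156 summit reads at 1.41 and 1.5 times the floor, and those labelled WT 220 and 160 reads at 17.5 and 18.1 times. Fold enrichment was 45.1 and 30.9 in the libraries labelled Tg and 5.39 and 3.44 in those labelled WT. The summit reads overlapped while the backgrounds did not, and the summit itself lay at 0.159 and 0.299 kb in the libraries labelled Tg and at 0.746 and 0.751 kb in those labelled WT.

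At the upstream site of Vav1 the summit reads themselves did not overlap between the genotype labels in any mark. How many other sites separate in this way was not counted, so nothing is read from it. The reads below are raw counts of libraries with unlike floors. Over the floor, the H3K27ac means were 154 ± 12.3 in Tg and 9.24 ± 0.338 in WT (SD, n = 2 each). In H3K27ac its summit lay at -3.72 and -3.73 kb in Tg and at -3.65 and -3.75 kb in WT. The Tg libraries had 208 and 291 summit reads at 42.0 and 24.1 times the floor, against 29 and 17 reads at 1 and 1.35 times in the WT libraries. Fold enrichment overlapped, at 3.83 and 5.93 in Tg and 7.39 and 5.06 in WT. In H3K4me3 it had 127 and 127 reads at the floor in the libraries labelled Tg, against 322 and 306 reads at 15.5 and 15.2 times in those labelled WT. In H3K4me1 the strongest peak of the site lay nearer the gene, at -2.99 and -2.93 kb in Tg and -2.77 and -2.83 kb in WT, with 289 and 352 reads in Tg against 33 and 38 in WT.

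The internal site had the highest background of the 3 sites in the Tg libraries of H3K27ac and of H3K4me1, and in the H3K4me3 libraries labelled WT the gene start did. In H3K27ac the Tg libraries had 284 and 291 summit reads at 47.4 and 31.2 times the floor, against 76 and 61 reads at 1.40 and 2.14 times in the WT libraries. In H3K4me1 the Tg libraries had 329 and 353 reads at 48.0 and 24.9 times, against 45 and 58 reads at 2.65 and 1.53 times in WT. In H3K4me3 the libraries labelled Tg had 23 and 33 reads at 1.18 and 1.75 times, against 215 and 169 reads at 16.2 and 16.2 times in those labelled WT. Summits stood at 11.6 and 11.6 kb in H3K27ac Tg and at 11.0 and 11.1 kb in H3K27ac WT. In H3K4me3 they stood at 11.3 and 11.3 kb in the libraries labelled Tg and at 11.6 and 11.6 kb in those labelled WT. So the summits of the raised libraries lay within 0.1 kb of each other in 3 marks, and those of the other libraries' strongest peaks lay nearer the start. H3K4me1 WT replicate 1 had another peak there of nearly the same height, with 41 reads at 12.04 kb beside 45 reads at 10.9 kb.

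**Figure D3:**
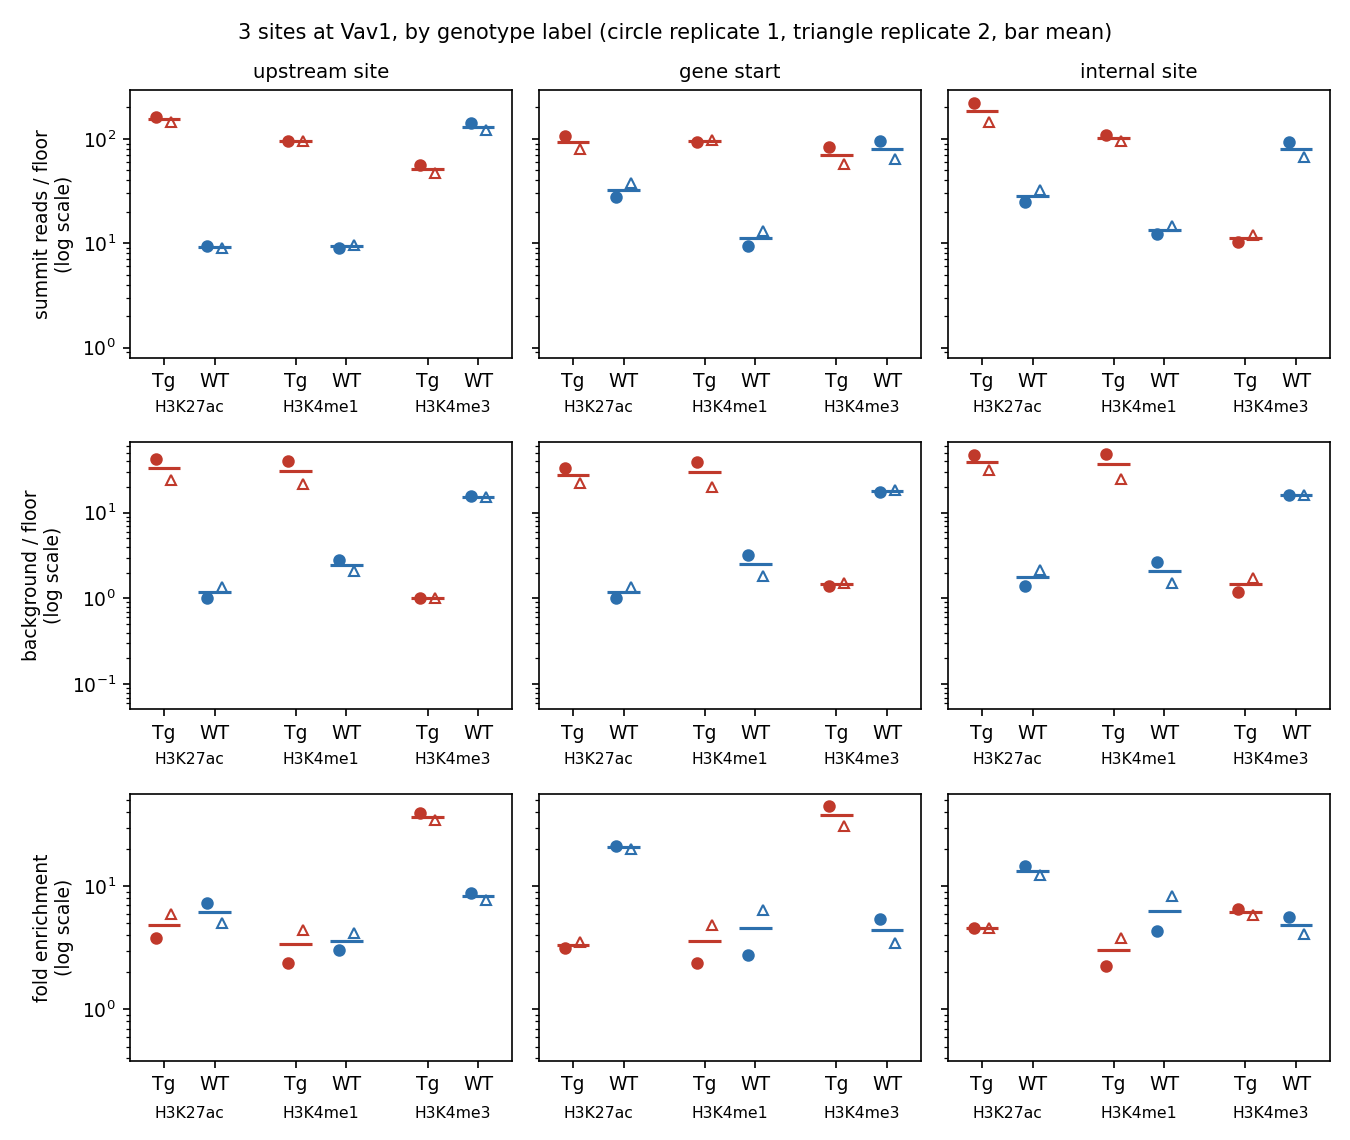
Summit reads over floor, background over floor and fold enrichment (rows, log axes) at the upstream site, the gene start and the internal site of Vav1 (columns), by mark and genotype label; circles are replicate 1, triangles replicate 2 and bars group means. At the internal site in H3K27ac, mean fold enrichment was 4.61 ± 0.0211 in Tg and 13.4 ± 1.63 in WT, although mean summit reads over floor were 184 ± 54.4 in Tg and 28.6 ± 5.27 in WT (SD, n = 2 each).

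Phf6 (chrX:52912214-52956961, 44.7 kb long) showed another picture: an ordinary start and narrow raised peaks inside the gene. At the start, H3K4me3 had 150 and 136 summit reads in the libraries labelled Tg and 129 and 110 in those labelled WT, with the background at the floor in all 4. Fold enrichment was 46.4 and 36.8 in the libraries labelled Tg and 39.6 and 31.5 in those labelled WT, and these ranges overlapped. H3K27ac at the start had 34 and 81 summit reads in Tg at 2.17 and 1.09 times the floor, against 109 and 50 reads in WT at 1.2 and 1.33 times. Its fold enrichment was 9.29 and 25.8 in Tg and 23.6 and 14.5 in WT, again overlapping. H3K4me1 had a peak near the start in WT replicate 2 alone of 4 libraries, with 21 reads at the floor.

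Inside Phf6, 17 peaks at 7 sites were raised. They came from 4 libraries, both of H3K4me1 Tg and both of H3K4me3 labelled WT, and the other 8 libraries had a peak at 0 of the 7 sites. The peaks were 163 to 707 bp wide, with a median of 286 bp, at 3.90 to 11.3 times the floor and a fold enrichment of 1.91 to 6.12. Where several libraries shared a site, their summits lay within 137 bp. Of the 17, 16 had a background set by the narrow window and 1 by the 1 kb window.

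**Figure D4:**
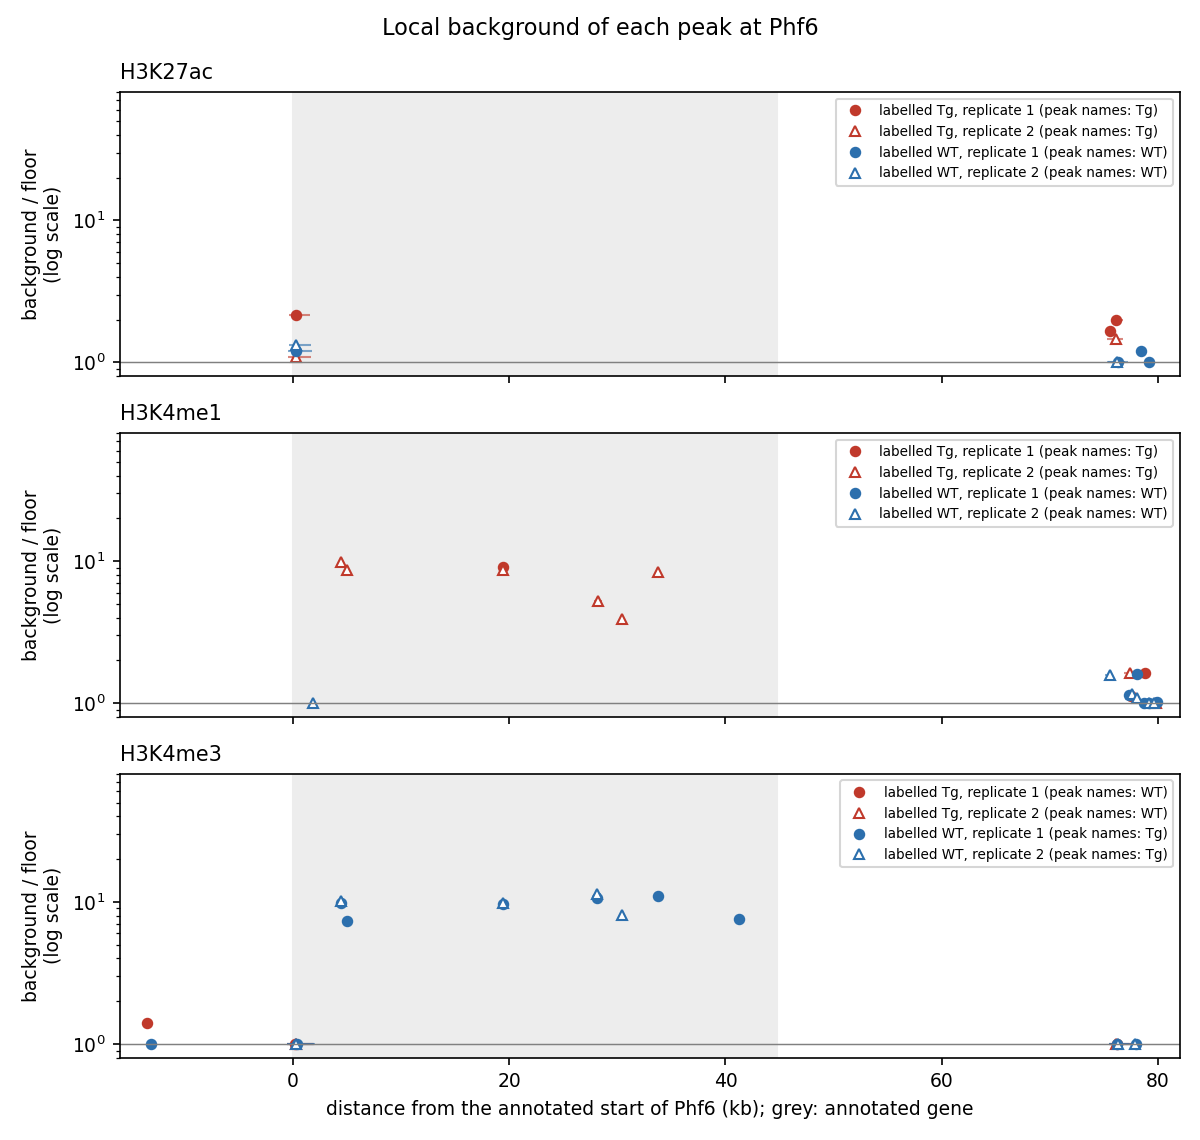
Background over floor (log scale) of each peak around Phf6 against its distance from the annotated gene start in kb, drawn as in the map of Vav1. Start peaks of H3K4me3 lie at the floor in 4 of 4 libraries, while the 17 peaks inside the gene lie between 3.90 and 11.3 times the floor.

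The site at 19.4 kb (chrX:52931428-52931857) was called in all 4 of those libraries. In H3K4me1 Tg it had 65 and 107 summit reads over a background of 27.3 and 32.1 reads, 9.04 and 8.63 times the floor, and no peak in either WT library. In H3K4me3 the libraries labelled Tg had no peak, and those labelled WT had 81 and 80 reads over 21.9 and 24.8 reads, 9.61 and 9.82 times the floor. The ratio to the floor thus differed little between the 2 marks at this site.

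Sites at 4.45 kb (chrX:52916446-52916862) and 28.1 kb (chrX:52940088-52940794) were called in 3 libraries each: H3K4me1 Tg replicate 2 and both H3K4me3 libraries labelled WT. At 4.45 kb the summit reads were 101 in the H3K4me1 library, and 87 and 72 in the H3K4me3 libraries, at 9.86 to 10.1 times the floor. At 28.1 kb they were 125, and 87 and 76, at 5.26 to 11.3 times. The peak of H3K4me1 Tg replicate 2 at 28.1 kb had the highest fold enrichment of the 17, 6.12.

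The remaining sites were called less widely. Those at 5 kb (chrX:52917100-52917422, 7.35 to 8.63 times), 30.4 kb (chrX:52942412-52942813, 3.90 to 8.03 times) and 33.7 kb (chrX:52945748-52946146, 8.42 to 11.0 times) were called in 2 libraries each, 1 of H3K4me1 Tg and 1 of H3K4me3 labelled WT. The site at 41.3 kb (chrX:52953396-52953649) was called in H3K4me3 labelled WT replicate 1 alone, at 7.63 times. H3K4me1 Tg replicate 1 had a peak at 1 of the 7 sites and Tg replicate 2 at 6, so the H3K4me1 picture rests mainly on Tg replicate 2. The H3K4me3 libraries labelled WT had peaks at 6 and 4 sites. Exon positions were not used here, so whether a site is exonic or intronic is not given.

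The raised part of Phf6 lay between 4.23 and 33.9 kb in H3K4me1 Tg replicate 2, between 4.3 and 41.4 kb in H3K4me3 labelled WT replicate 1 and between 4.32 and 30.5 kb in replicate 2. On its left the H3K4me3 start peaks of those libraries ended at 2.00 and 2.01 kb, at the floor. On its right the next peaks began at 75.4 to 77.3 kb, past the end of Phf6 and beside Hprt, at 1 to 1.64 times. Because H3K27ac had no peak inside Phf6, its background there is not known.

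At the level of the whole gene, Phf6 differed from Vav1 mainly in H3K27ac, but its values compare unlike positions. In H3K4me1 and H3K4me3, the low values came from a peak at or near the start and the high values from peaks inside the gene. In H3K27ac each library had only its start peak. The highest H3K4me1 background of Phf6 was 9.04 and 9.86 times the floor in Tg, against 1 in WT replicate 2 and no peak in WT replicate 1. Its highest H3K4me3 background was 1 and 1 in the libraries labelled Tg, against 11.0 and 11.3 in those labelled WT. The log2 differences were 3.24 in H3K4me1, from 3 libraries, and -3.48 in H3K4me3. In H3K27ac the difference was 0.28, beside the median of 0.62 over all genes, and it changed sign to -0.26 over the library median and to -0.21 without Tg replicate 1.

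The number of raised peaks at Phf6 was 0 of 2 in Tg and 0 of 2 in WT for H3K27ac, 7 of 7 in Tg and 0 of 1 in WT for H3K4me1, and 0 of 2 in the libraries labelled Tg and 10 of 12 in those labelled WT for H3K4me3. These counts are set against the same 0.788% of all peaks. The length covered by H3K4me3 peaks was 2406 and 2493 bp in the libraries labelled Tg and 4416 and 3650 bp in those labelled WT.

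Phf6 is X-linked, so the number of X chromosomes in a library may bear on it. Xist, the RNA that coats the inactive X chromosome, had peaks in all 8 H3K27ac and H3K4me1 libraries. In H3K4me3 it had 0 and 3 peaks in the libraries labelled Tg and 0 and 6 in those labelled WT. Uty, Ddx3y, Eif2s3y and Kdm5d, all on the Y chromosome, had peaks in replicate 1 of both labels and in no other library. The raised H3K4me3 sites of Phf6 appeared in both replicates labelled WT and in neither labelled Tg. What part the number of X chromosomes has in the values at Phf6 was not tested.

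To ask how many other genes behave alike, each gene was given the smallest of 3 differences, 1 a mark: the lowest Tg-named minus the highest WT-named library in log2 highest background over floor, with a library without a peak set at the floor. Vav1 had 2.95, the highest of 21883 genes over the 12 libraries, with 3.39 in H3K27ac, 2.95 in H3K4me1 and 3.41 in H3K4me3. This order rests on the peak names: by label the H3K4me3 value of Vav1 was -3.73, which is then its smallest, and its rank 21869. It was the only gene at 1 or more, and 162 genes were above 0. By mark, 3, 2 and 2 genes were higher by 2 or more in the Tg-named libraries of H3K27ac, H3K4me1 and H3K4me3, Vav1 among them each time. For 11, 9 and 21 genes the same measure lay as far below 0. Those are not mirror counts, since a single high WT-named or low Tg-named library is enough and the groups may overlap. By the smallest difference, the next after Vav1 were Tfdp1 at 0.31, Gfus at 0.30, Cgrrf1 at 0.26, and Yjefn3 and Ndufa13 at 0.25, the last 2 sharing their peaks. Phf6 had 3.18 in H3K4me1 and 3.46 in H3K4me3, the highest of all genes in both by peak name, and -0.29 in H3K27ac. Its H3K4me1 and H3K4me3 values set peaks inside the gene against a peak at or near the start, or against none. By label the H3K4me3 value of Phf6 was -3.50 and its rank by the smallest difference 21867. Both genes were chosen on this contrast, so nothing is read from their ranks.

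**Figure D5:**
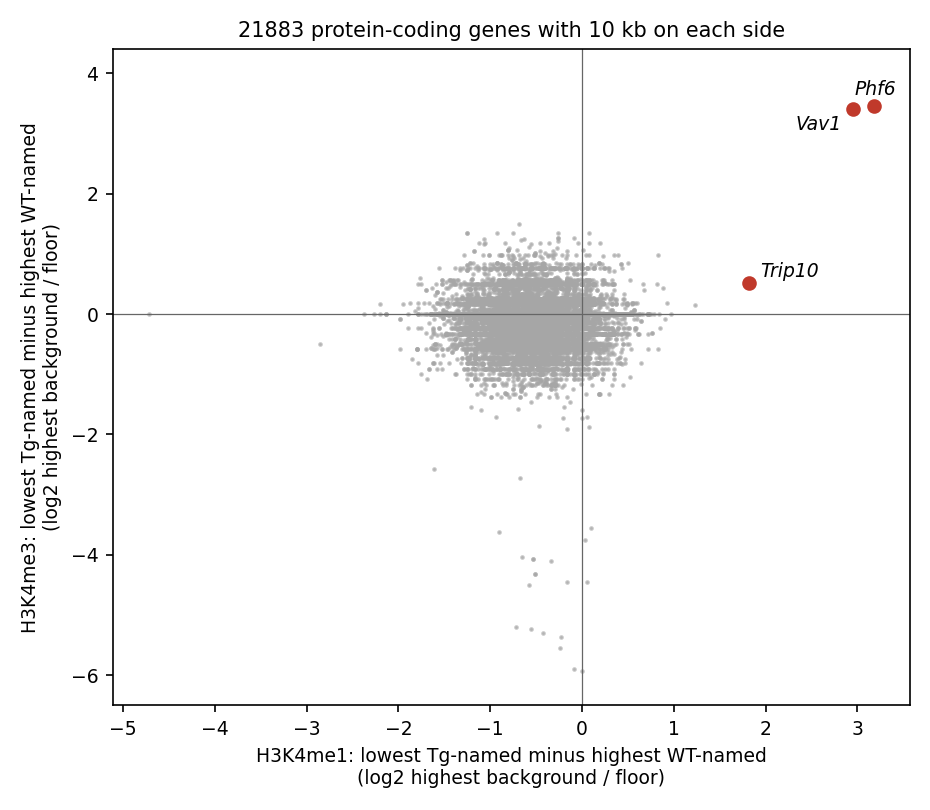
Each point is 1 of 21883 protein-coding genes with 10 kb on each side: lowest Tg-named minus highest WT-named library, in log2 highest background over floor, for H3K4me1 (horizontal) and H3K4me3 (vertical). Phf6 (3.18, 3.46) and Vav1 (2.95, 3.41), both chosen on this contrast, lie at the upper right. Trip10, whose flank shares peaks with Vav1, lies at 1.82 and 0.51.

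In single libraries, other genes had backgrounds as high as Vav1. Vav1 ranked 2 of 12985 and 4 of 13616 in the H3K27ac Tg libraries, 1 of 14992 and 2 of 16261 in the H3K4me1 Tg libraries, and 4 of 16264 and 16 of 15939 in the H3K4me3 libraries labelled WT. Phf6 ranked 26 and 12 in the H3K4me1 Tg libraries and 11 and 20 in the H3K4me3 libraries labelled WT. A high background in 1 library is thus not particular to the 2 genes; the difference by peak name in several marks is what the ranking above describes. Kit, which encodes the receptor that the sort used, was at 2.98 and 2.52 times the floor in H3K27ac Tg and 1.60 and 2.44 in WT, and at 2.47 and 1.85 in H3K4me1 Tg and 2.76 and 1.97 in WT. In H3K4me3 it was at 1.18 and 1.5 in the libraries labelled Tg and 1.70 and 2.08 in those labelled WT.

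Among neighbouring genes, a highest background above 10 times the floor was seen at Trip10 alone. Of the 5 protein-coding genes on each side of each locus, 20 in all, 16 had a peak in some library. The highest value at any other neighbour was 6.23 times, at Gpr108 in H3K27ac Tg replicate 1. Trip10, named like Gpr108 after its values were seen, ends 15.4 kb before Vav1, so its 10 kb flank holds the outermost raised peaks of the Vav1 stretch. Its highest background was 21.2 and 12.9 times the floor in H3K4me1 Tg, against 3.67 and 2.03 times in WT, and 13.3 times in H3K4me3 labelled WT replicate 1 alone. Hprt, the nearest gene after Phf6, was at 1 to 2.00 times in all 12 libraries.

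The other members of the Vav family had ordinary backgrounds, at most 2.74 times the floor for Vav2 and 5.48 times for Vav3, both in H3K4me1 Tg replicate 1. Over 7 lists of related genes without Vav1 (58 genes, among them the NuRD complex and other binding partners of Phf6, signalling partners of Vav1, active blood genes and genes whose elements are used in transgenes), 50, 55 and 57 genes had a peak in all 4 libraries of H3K27ac, H3K4me1 and H3K4me3. By the 1.5-fold rule 3 were separated with Tg higher in H3K27ac (Hdac2, Mta3 and Rac2), 0 in H3K4me1, and 2 in H3K4me3 (Gatad2a and Lat), against 0, 0 and 1 (Syk) with WT higher. These counts stand beside the shares over all genes given above. The highest backgrounds in the lists were 7.59 times the floor at Mbd3 in H3K27ac, 6.58 at Chd4 in H3K4me1 and 2.97 at Kmt2d in H3K4me3, and the genes named from the lists were chosen after their values were seen.

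By list, the NuRD partners had medians of 0.90, 0.02 and -0.03 in the 3 marks in the order above (log2, Tg minus WT by label), and the nucleolar and PAF1 partners 0.80, 0.04 and 0.20. Signalling partners of Vav1 had 0.65, 0.04 and -0.01, and plant homeodomain genes in leukaemia 0.54, 0.01 and -0.11. Genes whose elements are used in transgenes had 0.83, 0.19 and 0.05, active blood loci 0.74, -0.07 and -0.04, and the rest of the Vav family 0.54, 0.20 and 0.00. These stand beside medians over all genes of 0.62, 0.04 and 0.00.

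The labelled cell type was checked by the presence of peaks. Over all 21883 genes, 57.0%, 64.6% and 70.1% had a peak in all 4 libraries of H3K27ac, H3K4me1 and H3K4me3. Of 6 genes of cKit+ stem and progenitor cells, 4, 6 and 6 did so; Gata2 had an H3K27ac peak in 2 libraries and Cd34 in 0. Of 3 genes each, the numbers were 2, 1 and 3 for mature granulocytes, 0, 2 and 1 for B cells, 0, 0 and 0 for T cells, 1, 1 and 3 for erythroid cells and 2, 2 and 2 for stroma and endothelium. The T cell genes Cd3e and Cd8a had 0 peaks in all 12 libraries, while Cd4 had an H3K4me1 peak in 3 of 4 libraries and none in the other marks. Peak presence is no measure of cell numbers, and the part of other cells in the values at Vav1 and Phf6 was not tested.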

How the data were processed

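ChIP DNA of 12 libraries was sequenced with single-end 75 bp reads, per the labels' protocols. Bowtie2, MACS2 and the mm10 build are named in the submitters' processing notes; their versions, the peak thresholds and the control library are not given in the sources used here. The deposited peak lists, 1 per library, hold for each peak a score, a fold enrichment (a ratio) and p- and q-values as −log10. Total reads are not given in the sources used here; floors of 1.28 to 3.98 reads set the precision.

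From the deposited fold and −log10 p, summit reads and background were solved (Python 3.11.15, numpy 2.4.6, scipy 1.17.1, pandas 2.3.3), after the solver was tested on simulated peaks. Gene bounds and the promoter are RefSeq's, GRCm38.p6. Members and lists were chosen with earlier results of these data known. Named were Phf6, Vav1, Kit, Xist and the 5 genes most like the pair over 12 libraries; list genes and neighbours only where raised in both libraries of 1 genotype, or where the text says so. Alternatives were another floor, flank, peak threshold, Poisson tail and separation, and leaving out each library.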

Additional observations from a re-analysis of the deposited data

Results flagged for a closer look

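The difference in log2 highest background over floor, Tg minus WT by label, took opposite signs between marks at both genes. All libraries lay on their side except at Phf6 in H3K27ac, where the values overlapped and the difference was 0.28. At Vav1 the difference was 4.06 in H3K27ac and 3.51 in H3K4me1, but -3.57 in H3K4me3. At Phf6 it was 3.24 in H3K4me1, where WT replicate 1 has no peak, and -3.48 in H3K4me3. Both Phf6 values set peaks inside the gene against a peak at or near the start. The difference between the marks was not tested. In H3K4me3 the genotype in the peak names is the opposite of the label in all 4 lists, and by peak name the sign is the same in the 3 marks at Vav1 and in both marks at Phf6.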

How the results depend on the processing

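At Vav1 the sign of the difference held under all alternatives run. Over the library median, added after seeing the data, the H3K27ac difference at Vav1 was 3.51 and at Phf6 -0.26, and the Phf6 H3K4me1 difference was 3.02. With the median of the peaks at the gene in place of the highest, Vav1 in H3K4me1 was 0.59, since most of its peaks lie outside the raised blocks, and Phf6 was 3.13 in H3K4me1 and -3.28 in H3K4me3. With 50 kb flanks Phf6 was 2.57 and -3.23 in those marks, and with the other Poisson tail 3.08 and -3.54. Leaving out each library gave 3.69 to 4.42, 3.04 to 3.98 and -3.72 to -3.42 at Vav1 in H3K27ac, H3K4me1 and H3K4me3, and -0.21 to 0.78, 3.18 to 3.30 and -3.50 to -3.46 at Phf6; without H3K4me1 WT replicate 2 Phf6 has no value.

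Raised peaks of both genes by the 2-fold rule numbered 14 in H3K27ac Tg (6 without flanks) and 4 in WT (0 at 3 times the floor, 2 at the stricter threshold, 1 without flanks, 0 by the 99th percentile, added after seeing the data). In H3K4me1 they numbered 27 in Tg (13 without flanks) and 14 in WT (24 at 1.5 times, 2 at 3 times, 2 without flanks, 0 by the percentile). In H3K4me3 there were 0 labelled Tg (2 at 1.5 times) and 22 labelled WT. Of all peaks, the 2-fold rule took 70.4% and 28.5% in H3K27ac Tg and 3.53% and 26.7% in WT. In H3K4me1 it took 40.1% and 6.23% in Tg and 25.8% and 7.96% in WT. In H3K4me3 it took 1.11% and 1.73% labelled Tg and 1.27% and 2.29% labelled WT. The percentile took 0.788% over all lists, and shares for the other settings were not counted. The counts are therefore partly those of the libraries.

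The share of all genes separated, with Tg higher and then WT higher, moved with the factor asked. At 2 times it was 0.753% and 0.0160% in H3K27ac, 0.0212% and 0.0141% in H3K4me1, and 0.143% and 0.274% in H3K4me3. With any separation it was 48.9% and 0.481%, 9.08% and 7.34%, and 17.6% and 29.5%. Over the library median it was 0.850% and 0.625% in H3K27ac. With no peak counted as the floor, WT was higher in 0.105% of genes in H3K27ac and 0.605% in H3K4me1; at the stricter threshold WT was higher in 0% in H3K27ac and Tg in 0.369% in H3K4me1. Without single libraries, which leaves fewer values to separate, the shares ran between 8.86% and 57.1%, and 0.0718% and 0.575%, in H3K27ac, 0.695% and 16.1%, and 0.868% and 9.52%, in H3K4me1, and 2.16% and 4.72%, and 3.39% and 6.63%, in H3K4me3.

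No paired analysis was possible because no result here comes from a test. Backgrounds are known only under called peaks, so a stretch without a peak gives no value.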
